A study of Mus musculus with 8 samples.

Results

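The ribosome biogenesis factors described here are 50 genes, chosen by name as nucleolar or ribosome assembly factors, of 23358 genes counted by RNA-seq in mouse hematopoietic stem cells. The choice was made with earlier results of these data known, so shares of members set beside all tested genes below are descriptive. The 50 members comprised 3 subunits of RNA polymerase I, 5 abundant nucleolar proteins, 6 core proteins of small nucleolar ribonucleoproteins (snoRNPs), 17 factors of the small ribosomal subunit and 19 factors of the large subunit. All 50 passed the filter on low counts, as did 14086 genes in all. The cells came from mouse bone marrow, carried the surface phenotype Lin-Sca+Kit+CD48-CD150+ and went into Trizol without culture. There were 3 libraries labelled Huwe1 knockout with Mx1-Cre, 2 labelled Huwe1 knockout with Vav-Cre and 3 labelled Huwe1 wild type. Mx1-Cre deletes a conditional allele upon induction, and Vav-Cre does so constitutively in blood cells. The titles name no Cre and no inducing agent for wild type, the labels give no treatment for any library, and the age and sex of the mice are not given there. The study set Huwe1 loss against wild type in stem cells, and it used a pair of Cre lines for this. The labels do not say that libraries of a group came from separate mice, so p-values measure the spread between these samples, which may be technical in part.

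Ribosomes are assembled mainly in the nucleolus. RNA polymerase I transcribes the long precursor of the 18S, 5.8S and 28S ribosomal RNAs, snoRNPs guide its chemical modification, and separate sets of assembly factors then fold and cut the small and large subunit parts and escort them to the cytoplasm. Hematopoietic stem cells are known for a low rate of protein synthesis, and genes of ribosome assembly are textbook targets of the transcription factor MYC. HUWE1 is a large HECT-type ubiquitin ligase, and MYC family proteins are among its reported substrates.

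Total counts were 28689765 to 33202926 per library, and 14601 to 15090 genes were detected in Mx1-Cre knockout, 14739 and 15170 in Vav-Cre knockout and 15331 to 15554 in wild type libraries. Levels below are CPM, counts per unit of library total, scaled by TMM, the trimmed mean normalization of edgeR. Huwe1 itself stood at 444, 399 and 412 CPM in the libraries labelled Mx1-Cre knockout, at 445 and 490.2 CPM in those labelled Vav-Cre knockout and at 434, 398 and 433 CPM in wild type. Its log2 fold change was -0.01 ± 0.11 (SE) for Mx1-Cre and 0.15 ± 0.13 for Vav-Cre. A single count per gene does not show whether a deleted exon was lost, so the knockout was not checked here. Of 8 stem cell marker genes, all were detected and tested. Their summed level was 2114 to 4037 CPM in Mx1-Cre knockout, 3583 and 3821 CPM in Vav-Cre knockout and 3537 to 4102 CPM in wild type. Gene by gene, 7 of the 8 had a fold below 0 in Mx1-Cre knockout, with a median log2 fold change of -0.63 and 3 called lower. In Vav-Cre knockout 2 were below 0, with a median of 0.15 and 1 called lower. All 8 were higher in Vav-Cre than in Mx1-Cre libraries, with a median of 0.74 and 2 called, and the part of this difference in the results below was not tested.

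The E-box CACGTG, bound by MYC with MAX and by other basic helix-loop-helix factors, was searched in the 250 bases before to 50 bases after each gene's start in RefSeq promoters (GRCm38.p6). It reads the same on both strands. Of the 43 members in that table, 10 held it (23.3%), against 1190 of 10327 tested genes (11.5%), 2187 of all 27025 symbols (8.09%) and 5 of 39 cytosolic ribosomal protein genes (12.8%). By role it was in 5 of 15 small subunit factors, 4 of 16 large subunit factors and 1 of 4 nucleolar proteins, and in 0 of 3 RNA polymerase I subunits and 0 of 5 snoRNP proteins. Sites of 5 members are shown to give the motif's context in genes with larger and smaller differences. Grwd1 is a called gene, Nop2, Pno1 and Utp20 had an unadjusted p under 0.05 in Vav-Cre libraries, and Pes1 had the smallest difference of the large subunit factors with a site. All 5 were thus chosen by their values. The E-box is in capitals.
Grwd1: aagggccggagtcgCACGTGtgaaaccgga
Nop2: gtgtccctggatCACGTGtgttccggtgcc
Pno1: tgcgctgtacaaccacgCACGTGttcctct
Utp20: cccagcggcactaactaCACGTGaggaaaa
Pes1: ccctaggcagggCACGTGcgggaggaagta
These lie at chr7:45830740-45830769 (minus strand), chr6:125131811-125131840 (plus), chr11:17211540-17211569 (minus), chr10:88826765-88826794 (minus) and chr11:3963965-3963994 (plus). The first base of the motif is at -60 from the start in Nop2, and 35, 38, 38 and 3 bases from the start in Grwd1, Pno1, Utp20 and Pes1. The other sites were in Imp4, Mybbp1a, Nle1, Tsr1 and Wdr43. A match describes the sequence of the window and is no measure of binding.

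Per kilobase of exon (GENCODE M21, GRCm38), the members had a median wild type level of 28.1 CPM, against 6.24 CPM over 13173 tested genes with a length. Of the 50, 48 lay above that median of tested genes. The order was led by Npm1 (nucleophosmin, a histone and ribosome chaperone) at 315 CPM per kilobase, followed by the snoRNP proteins Nhp2 and Nop56 at 110.2 and 109.8. Fbl (fibrillarin, the rRNA 2'-O-methyltransferase of box C/D snoRNPs) stood last, with 0.848 CPM per kilobase and only 67 to 140 counts in any library. The annotation used for counting was not given, so whether so few counts reflect the RNA level of Fbl was not tested. Replicates were closer for the members than for tested genes in general, which were not matched to the members' higher level. The median SD of log2 CPM was 0.16 in Mx1-Cre knockout, 0.14 in Vav-Cre knockout and 0.11 in wild type libraries for the members, against 0.28, 0.23 and 0.21 for all tested genes in the same groups. Per the labels the library protocol was unstranded, so members whose exons overlap a gene on the opposite strand are less certain. The overlap took 37.3% of the exon bases of Tbl3, 32.3% of Tsr1 and 11.5% of Utp14a, and at most 5.28% of any other member. Ncl, Nop56, Nop58, Gnl3 and Ppan also host snoRNA genes.

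In Vav-Cre knockout libraries, all 50 members had a log2 fold change below 0 against wild type, from -1.17 to -0.01 with a median of -0.32. Over all tested genes 51% were below 0 and the median was -0.01. Of the 50, 1 fell at an adjusted p under 0.05 and 0 rose (edgeR's quasi-likelihood test, Benjamini-Hochberg over 14086 genes), against 0.319% of tested genes called lower, 0.192% called higher and 0.511% called in either direction. At an unadjusted p under 0.05, 17 members were lower and 0 higher, where 7.64% of tested genes were lower and 5.76% higher. Both Vav-Cre libraries lay below all 3 wild type libraries for 33 members, against 17.1% of tested genes. Both lay above wild type for 0 members, against 15.6% of tested genes. In bulk RNA, less RNA per cell and fewer cells of a type that holds it cannot be told apart.

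**Figure D1:**
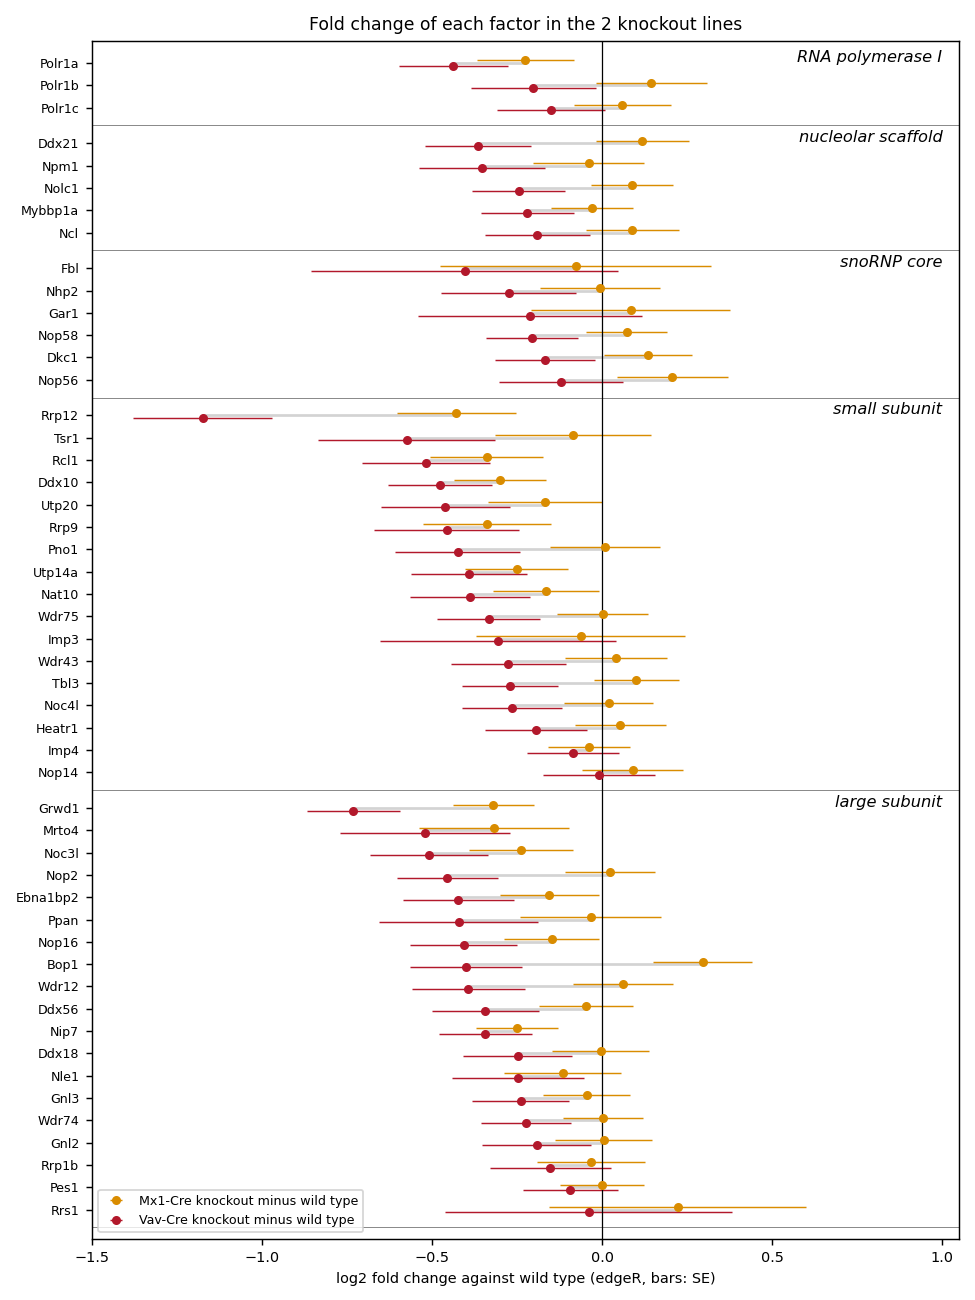
Log2 fold change against wild type (x axis, edgeR, bars are SE) of each of the 50 factors by role, for the Mx1-Cre knockout (orange) and the Vav-Cre knockout (red). All 50 red points lie left of 0, whereas 28 of the 50 orange points do.

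The same direction showed in each Vav-Cre library. Relative to the wild type mean, the median of the members was -0.12, -0.02 and 0.01 (log2) in Mx1-Cre 1 to 3, -0.29 and -0.31 in Vav-Cre 1 and 2, and 0.06, 0.03 and -0.07 in wild type 1 to 3. Below the lowest wild type library lay 37 members in Vav-Cre 1 and 41 in Vav-Cre 2, where 29.7% and 35.3% of all tested genes did. Above the highest wild type library lay 0 members in either Vav-Cre library, against 4191 and 4593 of the 14086 tested genes. In Mx1-Cre 1 to 3, 24, 16 and 16 members lay below the wild type range, against 32.1%, 34.1% and 35.4% of tested genes, so that Mx1-Cre 2 and 3 were near that share. Above the range lay 5, 13 and 18 members, against 4255, 4566 and 4811 of the 14086 tested genes.

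**Figure D2:**
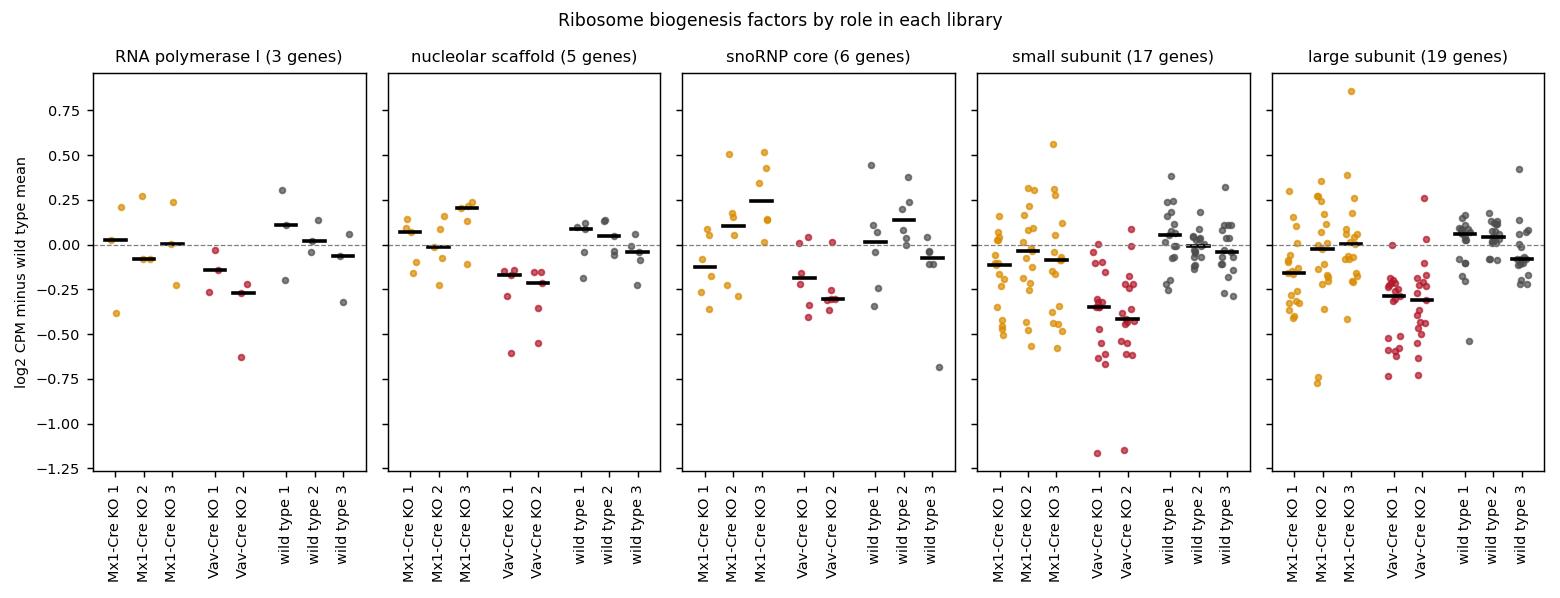
Log2 CPM minus the wild type mean (y axis) of each factor in each of the 8 libraries, split by role, where a point is a gene and a black bar the median. The Vav-Cre points of the small and large subunit factors sit mostly below 0, with medians of -0.35 and -0.42 for the small and -0.29 and -0.31 for the large subunit.

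RNA polymerase I was represented by its catalytic subunits Polr1a and Polr1b and by Polr1c, which RNA polymerase III shares. Polr1a, the largest subunit, had 81.6, 100.3 and 90.8 CPM in Mx1-Cre knockout, 88.4 and 68.6 CPM in Vav-Cre knockout and 114, 103 and 102 CPM in wild type libraries. Every knockout library of both lines was below every wild type library. Its log2 fold change was -0.44 ± 0.16 in Vav-Cre (unadjusted p = 0.0205, adjusted p = 0.265) and -0.23 ± 0.14 in Mx1-Cre (adjusted p = 0.476), so it was not called. Polr1b had 139.7, 145 and 121 CPM in Mx1-Cre knockout, 109 and 103.5 CPM in Vav-Cre knockout and 149, 122 and 96.4 CPM in wild type. The Vav-Cre libraries of Polr1b lay inside the wild type range, as did the Mx1-Cre libraries. Polr1c had log2 fold changes of -0.15 ± 0.16 in Vav-Cre and 0.06 ± 0.14 in Mx1-Cre.

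The 5 nucleolar proteins had a median log2 fold change of -0.25 in Vav-Cre and 0.09 in Mx1-Cre. Of the 5, 0 were called in either line, where 0.511% of tested genes were called in Vav-Cre and 2.49% in Mx1-Cre. Ncl (nucleolin, an abundant rRNA-binding protein) had 837, 999 and 1041 CPM in Mx1-Cre knockout, 809 and 772 CPM in Vav-Cre knockout and 953, 985 and 767 CPM in wild type. Both Vav-Cre libraries of Ncl lay near wild type 3, the lowest of its group, and the groups overlapped. Npm1 had 750.2, 716 and 985 CPM in Mx1-Cre knockout, 745 and 571 CPM in Vav-Cre knockout and 734, 916 and 871 CPM in wild type, again with overlap. Ddx21, an RNA helicase in rRNA transcription and processing, had 279, 268 and 276 CPM in Mx1-Cre knockout, 166 and 227 CPM in Vav-Cre knockout and 271, 243 and 245 CPM in wild type. Both Vav-Cre libraries of Ddx21 were below wild type, by -0.36 ± 0.16 (unadjusted p = 0.0398, adjusted p = 0.34), and 2 of the 3 Mx1-Cre libraries were above it. Nolc1 (the snoRNP chaperone Nopp140) and Mybbp1a, at -0.25 ± 0.14 and -0.22 ± 0.14 in Vav-Cre, also had both Vav-Cre libraries below wild type.

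The 6 snoRNP core proteins showed the same order of groups with smaller and less separated differences. Their median log2 fold change was -0.21 in Vav-Cre and 0.08 in Mx1-Cre, with 0 called in either, against 0.511% and 2.49% of tested genes. Nop56, of the box C/D particles that guide 2'-O-methylation, had 466, 638 and 454 CPM in Mx1-Cre knockout, 463 and 365 CPM in Vav-Cre knockout and 485, 448 and 418 CPM in wild type. Its partner Nop58 had 223, 263 and 259.5 CPM in Mx1-Cre knockout, 212 and 198 CPM in Vav-Cre knockout and 229.9, 249.9 and 229.7 CPM in wild type. Nop58 was the only member of these 6 with both Vav-Cre libraries below wild type. That share was near the 17.1% of tested genes with this pattern. Nhp2, of the box H/ACA particles that guide pseudouridylation, had 111, 107 and 159 CPM in Mx1-Cre knockout, 107.5 and 101 CPM in Vav-Cre knockout and 106, 144 and 129 CPM in wild type. Fbl had 2.81, 2.76 and 4.58 CPM in Mx1-Cre knockout, 2.66 and 2.73 CPM in Vav-Cre knockout and 4.62, 4.004 and 2.09 CPM in wild type. At that depth its SE was 0.45 in Vav-Cre, larger than its log2 fold change of -0.40. Dkc1 (dyskerin, the pseudouridine synthase) and Gar1 had -0.17 ± 0.15 and -0.21 ± 0.33 in Vav-Cre.

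The small subunit factors held the member furthest from wild type. Rrp12, which acts in maturation and export of pre-40S particles, had 34.1, 38.3 and 30.6 CPM in Mx1-Cre knockout, 20.4 and 20.6 CPM in Vav-Cre knockout and 53.9, 47.3 and 37.5 CPM in wild type. Both Vav-Cre libraries were below all others, and the Mx1-Cre libraries reached up to the lowest wild type library. Rrp12 averaged 20.5 ± 0.18 CPM in Vav-Cre knockout (SD, n = 2) and 46.2 ± 8.26 CPM in wild type (SD, n = 3), and it fell by 55.7% by the model. The log2 fold change was -1.17 ± 0.20 (edgeR, adjusted p = 0.0376). The call was lost, at adjusted p of 0.0722 to 0.178, when Vav-Cre 1, Vav-Cre 2 or any 1 wild type library was left out, and at 0.0736 without Mx1-Cre 1, which shares the estimate of spread. The log2 fold change was -1.05 to -1.31 in all of these fits.

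Of the other 16 small subunit factors 0 were called in Vav-Cre libraries, against 0.511% of tested genes called in either direction. Their log2 fold changes ran from -0.57 ± 0.26 for Tsr1, a late pre-40S factor with uncertain counts, to -0.01 ± 0.17 for Nop14, a component of the early SSU processome. Ddx10, a helicase homologous to yeast Dbp4, had 129, 150.3 and 121 CPM in Mx1-Cre knockout, 129 and 107 CPM in Vav-Cre knockout and 178, 158 and 156 CPM in wild type. All 5 knockout libraries of Ddx10 lay below all wild type libraries, with -0.48 ± 0.15 in Vav-Cre (unadjusted p = 0.0104, adjusted p = 0.207) and -0.30 ± 0.13 in Mx1-Cre (unadjusted p = 0.0489, adjusted p = 0.297). At an unadjusted p under 0.05 in Vav-Cre libraries were also Rcl1 (-0.52 ± 0.19), Utp20 (-0.46 ± 0.19), Pno1 (-0.42 ± 0.18), Utp14a (-0.39 ± 0.17) and the 18S rRNA acetyltransferase Nat10 (-0.39 ± 0.18). Both Vav-Cre libraries lay below wild type for 13 of the 17 small subunit factors, against 17.1% of tested genes. The class had a median log2 fold change of -0.39 in Vav-Cre and -0.06 in Mx1-Cre.

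Among large subunit factors the furthest from wild type was Grwd1, a WD-repeat chaperone of ribosomal protein L3. It had 80.8, 87.0 and 76.1 CPM in Mx1-Cre knockout, 61.0 and 61.2 CPM in Vav-Cre knockout and 105.7, 103.0 and 95.8 CPM in wild type. The 3 groups were separate, with Vav-Cre lowest, Mx1-Cre between and wild type highest. The log2 fold change was -0.73 ± 0.14 in Vav-Cre (adjusted p = 0.0508) and -0.32 ± 0.12 in Mx1-Cre (unadjusted p = 0.0223, adjusted p = 0.206), and neither passed the threshold.

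Nop2, the 28S rRNA cytosine methyltransferase, had 188, 190.1 and 157 CPM in Mx1-Cre knockout, 123 and 134 CPM in Vav-Cre knockout and 197, 165.2 and 165.5 CPM in wild type. The Vav-Cre libraries were below the other 6 (-0.45 ± 0.15, unadjusted p = 0.012, adjusted p = 0.214), while the Mx1-Cre and wild type libraries overlapped. The PeBoW complex, which acts in processing of the 28S and 5.8S rRNAs, consists of Pes1, Bop1 and Wdr12, and their values differed. Bop1 had 84.5, 97.0 and 99.4 CPM in Mx1-Cre knockout, 52.8 and 62.9 CPM in Vav-Cre knockout and 77.1, 85.7 and 66.1 CPM in wild type. Bop1 was thus lowest in the Vav-Cre and highest in 2 of the Mx1-Cre libraries, with log2 fold changes of -0.40 ± 0.17 in Vav-Cre (unadjusted p = 0.0349, adjusted p = 0.323) and 0.30 ± 0.15 in Mx1-Cre (adjusted p = 0.348). Pes1 had 82.4, 85.8 and 77.5 CPM in Mx1-Cre knockout, 81.6 and 72.0 CPM in Vav-Cre knockout and 85.6, 84.3 and 76.0 CPM in wild type, and its groups overlapped. Wdr12 had log2 fold changes of -0.39 ± 0.17 in Vav-Cre and 0.06 ± 0.15 in Mx1-Cre.

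Over the 19 large subunit factors the median log2 fold change was -0.34 in Vav-Cre and -0.03 in Mx1-Cre. In Vav-Cre 0 of them were called, against 0.319% of tested genes called lower. Both Vav-Cre libraries lay below wild type for 15 of them, against 17.1% of tested genes. At an unadjusted p under 0.05, 8 were lower, against 7.64% of tested genes. Besides Grwd1, Nop2, Bop1 and Wdr12, these were Noc3l (-0.51 ± 0.17), Ebna1bp2 (-0.42 ± 0.16), Nop16 (-0.41 ± 0.16) and Nip7 (-0.34 ± 0.14), all pre-60S factors. The smallest difference was that of Rrs1, which takes part in recruiting the 5S RNP, at -0.04 ± 0.42, and Rrs1 had the widest spread of any member in Mx1-Cre libraries (SD of log2 CPM 0.83).

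**Figure D3:**
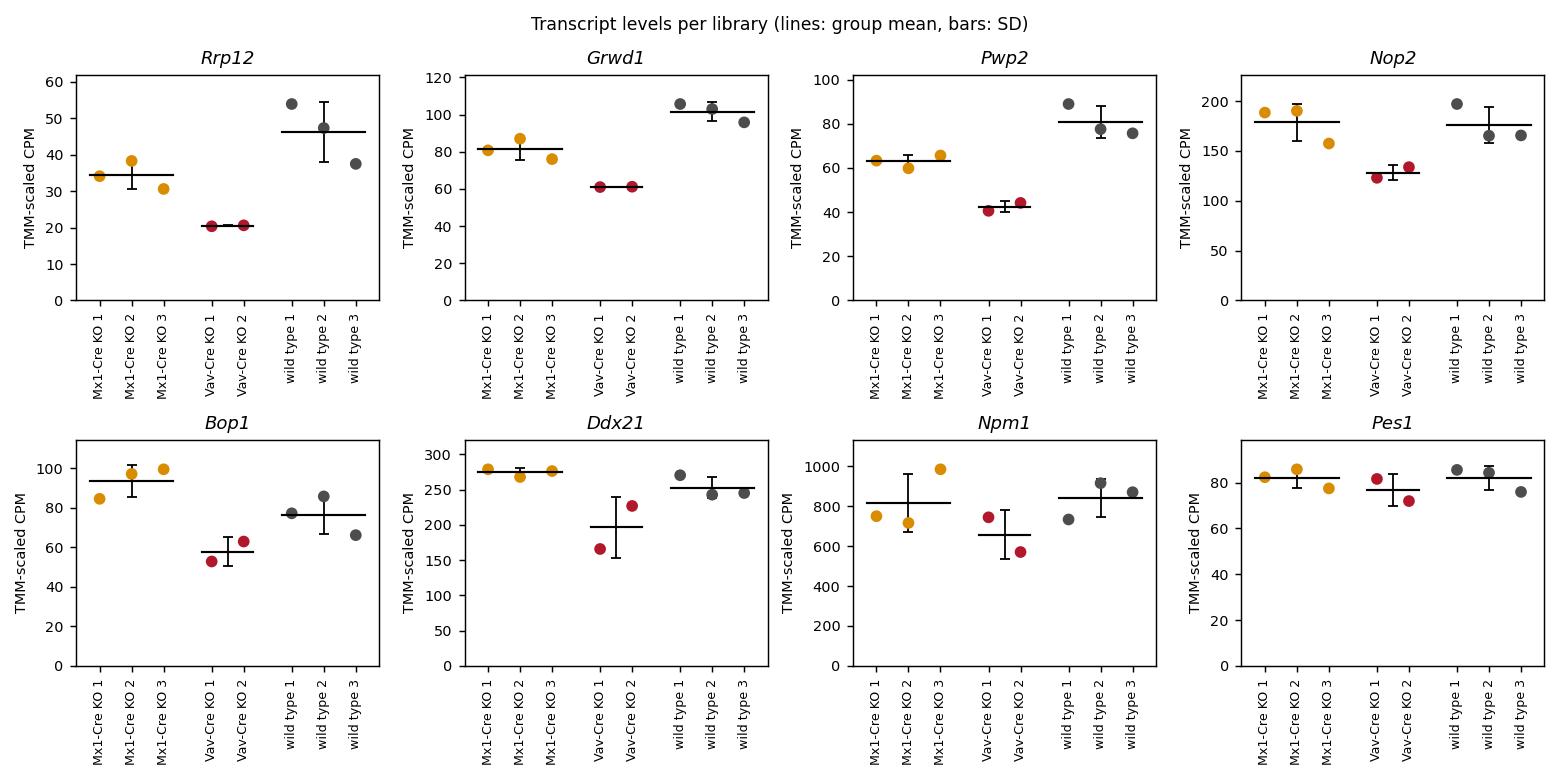
TMM-scaled CPM (y axis, from 0) in each of the 8 libraries for 7 of the factors and for Pwp2, with lines at group means and bars for SD. Rrp12, Grwd1, Pwp2, Nop2 and Bop1 have both Vav-Cre libraries lowest, at 20.4 and 20.6 CPM for Rrp12, whereas the groups overlap for Pes1 and Npm1.

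In Mx1-Cre knockout libraries edgeR called 0 of the 50 members against wild type. Of all tested genes it called 2.1% lower, 0.39% higher and 2.49% in either direction. DESeq2 also called 0 members, against 1042 of 14086 tested genes. At an unadjusted p under 0.05, 3 members were lower (Rrp12, Grwd1 and Ddx10) and 0 higher, against 10.5% of tested genes that were lower and 6.17% higher. Log2 fold changes were below 0 for 28 members, against 48.7% of tested genes, and ran from -0.43 for Rrp12 to 0.30 for Bop1 with a median of -0.02. When libraries were scaled by their totals alone the median was -0.10, and that of all tested genes was -0.07 in place of 0.01. All 3 Mx1-Cre libraries lay below wild type for 5 members (Polr1a, Utp14a, Ddx10, Nip7 and Grwd1), against 14.8% of tested genes. They lay above wild type for 1, Dkc1, against 10.9% of tested genes.

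The difference between the lines was tested in the same model, as Vav-Cre knockout minus Mx1-Cre knockout. It was called for 0 of the 50 members by edgeR, against 0.0568% of tested genes called lower, 0.114% higher and 0.17% in either direction. DESeq2 called it for 2 members, Rrp12 and Bop1 (adjusted p = 0.023 and 0.00835), and for 468 of all 14086 tested genes. Log2 differences were below 0 for all 50 members, from -0.74 to -0.05 with a median of -0.27, against 49.3% of tested genes. At an unadjusted p under 0.05, 9 were lower (5.96% of tested genes) and 0 higher (7.31% of tested genes). The Vav-Cre libraries lay below all Mx1-Cre libraries for 24 members, against 12% of tested genes, and above them for 0, against 13.8%. Rrp12 differed by -0.74 ± 0.20 (edgeR, unadjusted p = 0.00382, adjusted p = 0.181) and Bop1 by -0.70 ± 0.17 (unadjusted p = 0.00174, adjusted p = 0.148). Ddx21, Nop2 and Wdr12 followed with -0.48 ± 0.16, -0.48 ± 0.15 and -0.45 ± 0.17. Bop1, Polr1b and Ddx21 had every Mx1-Cre library above and every Vav-Cre library below the wild type mean of log2 CPM, a pattern of 2.57% of tested genes. Both line comparisons share the 3 wild type libraries.

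With both knockout lines averaged at equal weight, 2 of the 50 members fell against wild type, where 2.1% of tested genes were called lower, 0.547% higher and 2.65% in either direction. These were Rrp12 at -0.80 ± 0.16 (edgeR, adjusted p = 0.0273) and Grwd1 at -0.53 ± 0.11 (adjusted p = 0.0316). Their per-library values are given above. For Rrp12, Mx1-Cre 2 lay inside the wild type range, whereas for Grwd1 the knockout and wild type libraries did not overlap. Both calls were lost when Mx1-Cre 1, Vav-Cre 1, Vav-Cre 2 or any 1 wild type library was left out, at adjusted p of 0.0531 to 0.142 for Rrp12 and 0.054 to 0.163 for Grwd1. The log2 fold changes stayed between -0.68 and -0.94 for Rrp12 and between -0.50 and -0.57 for Grwd1 across all libraries left out. At an unadjusted p under 0.05, 11 members were lower, against 10.4% of tested genes, and 0 higher, against 6.11%. Log2 fold changes were below 0 for 47, against 50% of tested genes, with a median of -0.15, and the exceptions were Nop56, Nop14 and Rrs1. All knockout libraries lay below wild type for 5 members, against 7.28% of tested genes, and above it for 0, against 4.41%. The 5 were Polr1a, Utp14a, Ddx10, Nip7 and Grwd1.

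Other genes of ribosome assembly, 110 by list of which 109 were tested, had values below wild type in Vav-Cre by a smaller median. Their median log2 fold change was -0.19 in Vav-Cre, where 84 of 109 were below 0, and 0.04 in Mx1-Cre, where 44 were. Vav-Cre minus Mx1-Cre was -0.19, with 94 below 0. The only called gene was Pwp2, the UTP1 homologue of the UTP-B complex of the SSU processome. Of all tested genes, 0.319% were called lower in Vav-Cre and 2.1% with both lines averaged. Pwp2 had 63.3, 59.9 and 65.7 CPM in Mx1-Cre knockout, 40.6 and 44.2 CPM in Vav-Cre knockout and 89.0, 77.6 and 75.7 CPM in wild type, with no overlap between the groups. It fell by 0.93 ± 0.15 on the log2 scale in Vav-Cre (edgeR, adjusted p = 0.0355) and by 0.64 ± 0.12 with both lines averaged (adjusted p = 0.0217). The Vav-Cre call was lost, at 0.062 to 0.155, without Mx1-Cre 1, either Vav-Cre library or any 1 wild type library, and the averaged call, at 0.0903 to 0.11, without any 1 wild type library. By role, the Vav-Cre median was -0.23 for 34 small subunit factors, -0.10 for 42 large subunit factors, -0.25 for 21 snoRNP and RNA processing factors and 0.01 for 12 RNA polymerase I factors.

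The ribosomal proteins themselves, the products that these factors assemble, did not share the pattern in their medians. Over 50 cytosolic ribosomal protein genes the median log2 fold change was -0.01 in Vav-Cre and -0.10 in Mx1-Cre. Of these genes 0 were called in either line, against 0.511% and 2.49% of tested genes. Their library medians relative to the wild type mean were -0.03 and 0.05 in Vav-Cre, -0.24, -0.35 and 0.23 in Mx1-Cre and -0.30, 0.15 and 0.16 in wild type libraries, so the wild type libraries spanned the others except Mx1-Cre 2 and 3.

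Genes of the MYC network were read beside the factors. Of 11 listed, 10 were tested and 0 were called in any comparison, where 0.17% to 2.65% of tested genes were called. Myc had 670.4, 822 and 704 CPM in Mx1-Cre knockout, 549.8 and 687 CPM in Vav-Cre knockout and 746, 634 and 546 CPM in wild type libraries. The Vav-Cre libraries lay inside the wild type range for Myc. Mycn had 125, 87.5 and 145 CPM in Mx1-Cre knockout, 198 and 199 CPM in Vav-Cre knockout and 91.2, 117 and 114 CPM in wild type. Both Vav-Cre libraries were above the other 6 for Mycn, by 0.88 ± 0.20 against wild type (edgeR, unadjusted p = 0.00126, adjusted p = 0.0915), which misses the threshold. Max had a log2 fold change of 0.11 ± 0.37 in Vav-Cre. Members with an E-box in the promoter window had a median of -0.35 in Vav-Cre (n = 10) and those without had -0.31 (n = 33). Rrp12 had no entry among the promoters searched and is in neither set.

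Cell cycle genes separated the Vav-Cre libraries from each other more than the factors did. The median of 20 G2/M genes relative to the wild type mean was 0.34 in Vav-Cre 1 and -0.73 in Vav-Cre 2, 0.54, 0.30 and 0.69 in Mx1-Cre and -0.06, 0.02 and 0.06 in wild type libraries. That of 20 G1/S genes was 0.14 and -0.56 in Vav-Cre, 0.41, 0.34 and 0.46 in Mx1-Cre and -0.05, 0.05 and -0.02 in wild type libraries. The median of the 50 factors stood at -0.29 in Vav-Cre 1 and -0.31 in Vav-Cre 2. That of the 109 other tested genes of ribosome assembly stood at -0.13 and -0.25. Within the 50, the RNA polymerase I subunits had medians of -0.14 and -0.27, and the snoRNP proteins -0.19 and -0.30. The part of the cell cycle in these values was not tested. For 20 of 20 genes of either cell cycle list, Vav-Cre minus Mx1-Cre was below 0, as it was for all 50 factors.

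**Figure D4:**
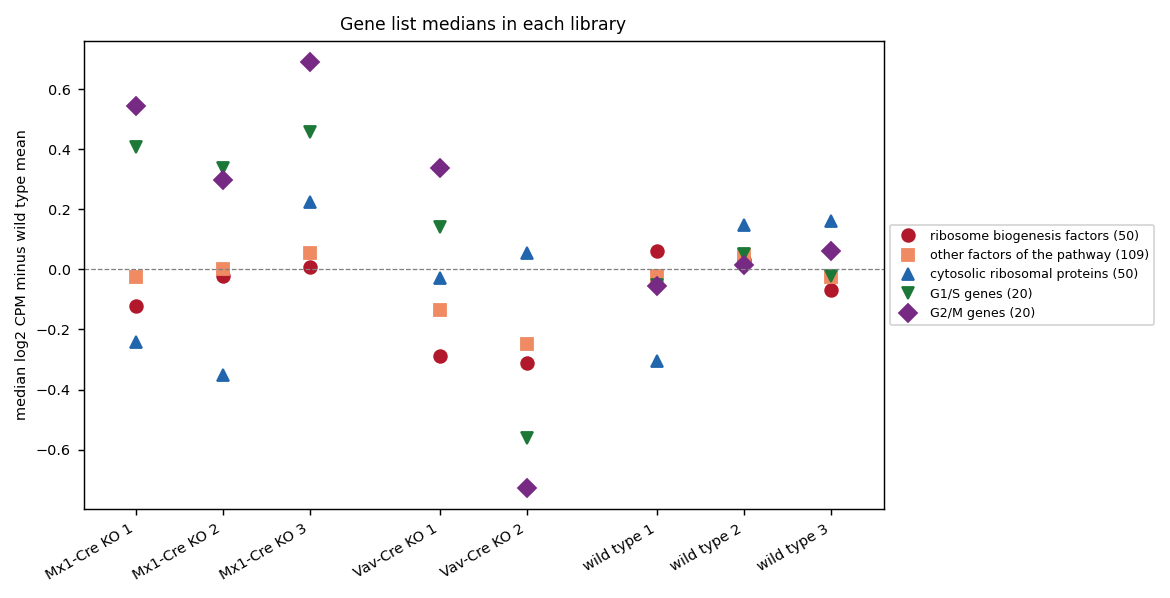
Median log2 CPM minus the wild type mean (y axis) of 5 gene lists in each of the 8 libraries, with the number of tested genes in brackets. The factors (red) stand at -0.29 and -0.31 in the Vav-Cre libraries, while the G2/M genes (purple) stand at 0.34 and -0.73 there.

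Markers of other blood cells also differed between the groups. The summed level of 7 myeloid progenitor markers was 164 to 221 CPM in Mx1-Cre knockout, 154 and 351 CPM in Vav-Cre knockout and 395 to 626 CPM in wild type. That of 6 erythroid markers was 109 to 251 CPM in Mx1-Cre knockout, 15.2 and 42.3 CPM in Vav-Cre knockout and 77.1 to 161 CPM in wild type, with Hba-a1 and Hbb-b1 at 0 in all libraries. For 6 megakaryocyte markers it was 533 to 779 CPM in Mx1-Cre knockout, 340 and 617 CPM in Vav-Cre knockout and 710 to 902 CPM in wild type. For 7 neutrophil and monocyte markers it was 357 to 841 CPM in Mx1-Cre knockout, 318 and 518 CPM in Vav-Cre knockout and 574 to 1431 CPM in wild type. For 7 T and NK cell markers it was 88.2 to 123 CPM in Mx1-Cre knockout, 53.3 and 90.1 CPM in Vav-Cre knockout and 103.5 to 167 CPM in wild type. For 7 markers of stroma and endothelium it was 54.6 to 79.2 CPM in Mx1-Cre knockout, 95.3 and 98.4 CPM in Vav-Cre knockout and 122 to 157 CPM in wild type. The sum of 6 B cell markers overlapped between the groups, at 52.8 to 66.7 CPM in Mx1-Cre knockout, 35.5 and 71.7 CPM in Vav-Cre knockout and 64.2 to 83.2 CPM in wild type. The sum of 5 mast cell and basophil markers was 24.8 to 40.9 CPM in Mx1-Cre knockout, 16.5 and 235 CPM in Vav-Cre knockout and 10.3 to 14.9 CPM in wild type, and Fcer1a alone made 208.5 CPM in Vav-Cre 2. Of the 4 tested genes of that list, 2 had a fold below 0 in Vav-Cre, with a median of -0.13. The sums of the myeloid progenitor, neutrophil and monocyte, erythroid, megakaryocyte, T and NK cell and stroma lists were thus lower in both Vav-Cre libraries than in all wild type libraries. Some sums rested on few genes, and Lyz2 made 307 of the 318 CPM of neutrophil and monocyte markers in Vav-Cre 1. Gene by gene, both Vav-Cre libraries lay below wild type for 4 of 7 myeloid progenitor and 2 of 7 neutrophil and monocyte markers. They did so for 3 of 4 tested erythroid, 2 of 6 megakaryocyte, 2 of 2 tested T and NK cell and 2 of 6 tested stroma markers. Among the factors this held for 33, against 17.1% of tested genes. By gene, Vav-Cre folds were below 0 for 5 of 7 myeloid progenitor and 7 of 7 neutrophil and monocyte markers. They were below 0 for 4 of 4 tested erythroid, 5 of 6 megakaryocyte and 4 of 6 tested stroma markers. The T and NK cell list had 2 tested genes, both below 0, and Nkg7 alone made 52.7 and 90.1 CPM of its Vav-Cre sums. The part of these markers in the result was not tested.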

How the data were processed

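RNA of sorted hematopoietic stem cells was sequenced in 8 libraries. Per the labels' protocols, the SMARTer Ultra Low Input and NEBNext kits were used for cDNA and libraries, unstranded. The submitters' processing notes name the build mm9 and the tools TopHat, SAMtools, HTSeq and edgeR. Their versions, the annotation and the counting's strand setting were not given in the sources used here. The authors deposited raw counts per gene symbol, which were analysed here, and a table of CPM for 12457 genes, where each deposited CPM value equals the count over the total, with relative differences up to 5.1e-15. Libraries were grouped by their titles.

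Counts were tested with the quasi-likelihood test of edgeR 4.0.16 in R 4.3.3, after filterByExpr (minimum count 10, minimum total 15) and TMM scaling, with 1 model fitted to the 8 libraries and no covariate besides group. P-values were adjusted by Benjamini-Hochberg over 14086 genes, and a gene was called below 0.05. Levels are given as TMM-scaled CPM (mean ± SD), and log2 CPM has a prior count of 2. The SE is that of the log2 fold change. Total counts of 28689765 to 33202926 set the precision, and reads without molecular identifiers are not independent molecules. Within groups, chi-square over degrees of freedom between libraries was 27.5 to 127, so no pair agreed within counting noise, and each library was used as labelled. The procedure was tested on simulated data.

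The members and lists were chosen with earlier results of these data known. Values in every library were given for called members, in each role class for the members with the smallest unadjusted p in Vav-Cre (up to 2) and Mx1-Cre (1), and for Ncl, Npm1, Fbl, Nop56, Polr1a, Polr1b, Bop1, Pes1, Rrp12 and Grwd1. Myc, Mycn, Max and called genes were named from the other lists. The value of 1 marker gene is not reported here. Gene names in the promoter table and in the gene annotation were matched by symbol. Alternatives were DESeq2 1.42.0, limma-voom (limma 3.58.1), DESeq2 size factors, library totals as the only scaling, no filter, only the groups compared, a replicate block and each library left out in turn.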

Additional observations from a re-analysis of the deposited data

How the results depend on the processing

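With both lines averaged, the 2 called members became 1 with a replicate block and 0 to 2 when a library was left out. In Vav-Cre against wild type the 1 called member became 2 with library totals only, no filter, DESeq2 or limma-voom (Rrp12 and Grwd1 in each), 0 with a replicate block, 0 in a fit of only the groups compared and 0 to 2 when a library was left out. In Vav-Cre minus Mx1-Cre the 0 called members became 2 with DESeq2. The Mx1-Cre median of members was -0.10 with library totals only, against -0.02, while that of all tested genes was -0.07, against 0.01. It was -0.05 to 0.04 when a library was left out, lowest without Mx1-Cre 3 and highest without Mx1-Cre 1. The cause of these shifts was not tested. Over all alternatives, 42 to 49 members had a fold below 0 with both lines averaged, 21 to 39 in Mx1-Cre, 47 to 50 in Vav-Cre and 45 to 50 in Vav-Cre minus Mx1-Cre. No call of a member or of Pwp2 changed sign under any alternative. Of 2979 gene results recomputed, 32 lost and 8 gained a call, and of 2907 folds not called 141 changed sign. Deviations of libraries with the same replicate number correlated at -0.07 to 0.13, and those of libraries with different numbers at -0.18 to 0.16. The deviations of 2 Vav-Cre libraries mirror each other, so these values cannot exclude that the numbers pair libraries. With the replicate block, Rrp12 in Vav-Cre had a log2 fold change of -1.27 (edgeR, adjusted p = 0.0695). Both Pwp2 calls were lost there, at 0.106 in Vav-Cre and 0.0566 with both lines averaged. Calls over all tested genes with DESeq2 were 953 for both lines averaged (373 with edgeR), 1042 for Mx1-Cre (351), 599 for Vav-Cre (72) and 468 for Vav-Cre minus Mx1-Cre (24). With a replicate block they were 218 with both lines averaged, 235 in Mx1-Cre, 20 in Vav-Cre and 9 in the difference. With no filter they were 174 in Vav-Cre and 81 in the difference, in a fit of only the groups compared 575 in Mx1-Cre, 111 in Vav-Cre and 3 in the difference, and with limma-voom 0 in the difference. When a library was left out they were 22 to 502 for both lines averaged, 58 to 565 for Mx1-Cre and 5 to 196 for Vav-Cre, each lowest without wild type 2, and 3 to 412 for the difference, lowest without wild type 3. With 2 Vav-Cre libraries, small differences of single genes were not detectable here.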

Other observations

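Split by exon length, the difference of the factors from wild type was present in each class. In Vav-Cre libraries the median log2 fold change was -0.34 for 22 members with exons of up to 3159 bases, -0.35 for 16 of up to 5730 bases and -0.21 for 12 longer ones. For all tested genes in the same classes it was -0.03, -0.02 and 0.03. In Mx1-Cre libraries the members' medians were -0.01, -0.02 and -0.03 in the same order, against -0.02, 0.01 and 0.04 for all tested genes. Within the Vav-Cre group the replicates of Grwd1 were the closest of any member (SD of log2 CPM 0.0030) and those of Imp3, of the U3 snoRNP-associated MPP10 complex, the furthest apart (0.44).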
